A study of Schizosaccharomyces japonicus with 6 samples.

Results

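The fission yeast *S. japonicus* carries 66 genes, of the 5272 in the deposited expression table, whose description contains the words mitochondrial ribosomal or mitochondrial ribosome, and these genes were followed in 3 strains. By their descriptions and symbols, 39 encode proteins of the large subunit and 23 proteins of the small subunit, and the description of the other 4 (*mrp10*, *mrp17*, *mrp21* and *mrp49*) does not state the subunit. A gene without a description could not be found by this rule, and 1071 genes have none. The class follows the description even where the name is used otherwise in another yeast: *mrp51* is described as L51-b and counted as large, whereas Mrp51 of *S. cerevisiae* belongs to the small subunit. Of the 4 unstated proteins, those named Mrp10, Mrp17 and Mrp21 in *S. cerevisiae* are small-subunit proteins and Mrp49 is a large-subunit protein.

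The mitochondrial ribosome translates the few messages of the mitochondrial genome, most of which encode core subunits of the respiratory chain and of ATP synthase. Nearly all of its proteins are encoded in the nucleus, made by cytosolic ribosomes and imported, so its genes are expressed alongside, and separately from, the genes for the cytosolic 40S and 60S subunits. The product of *cox11* is a fusion protein, which joins Cox11, a copper chaperone for cytochrome c oxidase, to the small-subunit protein Rsm22.

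Total RNA of vegetative cells, grown at 30°C in rich YES medium and harvested in mid log phase, was sequenced in 6 strand-specific libraries, 2 biological replicates each of WT, *pab2*Δ and *clr4-1*. The WT strain is NIG5572, which carries ura4-D3 and ade6-domK. The *pab2*Δ cells lack the gene for the nuclear poly(A)-binding protein Pab2, replaced by natMX6. The *clr4-1* strain carries a temperature-sensitive allele of the gene for the histone H3 Lys9 methyltransferase Clr4, which alters a cysteine in its SET domain. This allele was made by random mutagenesis of a *clr4* fragment that included the marker natMX6. Strain lists of the study hold *pab2*Δ in 2 mating backgrounds and do not say which was sequenced. Transcript levels are given in FPKM (sequenced fragments relative to transcript length and to library depth), which summed to between 910200 and 1081000 over all genes. The number of reads behind them is unknown.

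The *pab2* transcript, at 145 and 142 FPKM in WT, has a listed value of 0 in either library of *pab2*Δ. The mutated *clr4* gene remained transcribed in *clr4-1*, with 19.6 and 23.3 FPKM against 9.34 and 9.48 FPKM in WT. The vegetative genes *act1*, *tbp1* and *cdc2* were expressed in every library. The summed level of 8 genes of meiosis and sporulation was 28.4 and 28.0 FPKM in WT, 142 and 143 FPKM in *pab2*Δ and 30.5 and 31.5 FPKM in *clr4-1*. All 8 passed the test as higher in *pab2*Δ, where 53.8% of all genes tested did, and 2 in *clr4-1*, against 15.1%. After TMM scaling of the libraries, described below, *mde10* and *spo6* were not called in *pab2*Δ (log2 fold changes of 0.04 and 0.12). The part of these 8 genes in the results for ribosomal protein genes was not tested.

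In WT, mitochondrial ribosomal protein genes were expressed near the median of all genes and far under the cytosolic ones. Their medians in the 2 WT libraries were 25.0 and 24.55 FPKM, against 24.47 and 24.75 FPKM over all genes. By mean level in WT their median was 24.7 FPKM, with quartiles of 16.4 and 37.5 FPKM and a 41.7-fold range. The median of large-subunit genes, 23.0 FPKM, was close to that of small-subunit genes, 27.0 FPKM. The 123 genes described as cytosolic 40S or 60S ribosomal proteins had a median of 2749 FPKM, and none of the 66 mitochondrial genes exceeded the lowest of them, *rps14a*, at a mean of 286 FPKM. The 66 genes were detected in all 6 libraries, and all 66 passed the filter of a mean of at least 1 FPKM.

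**Figure D1:**
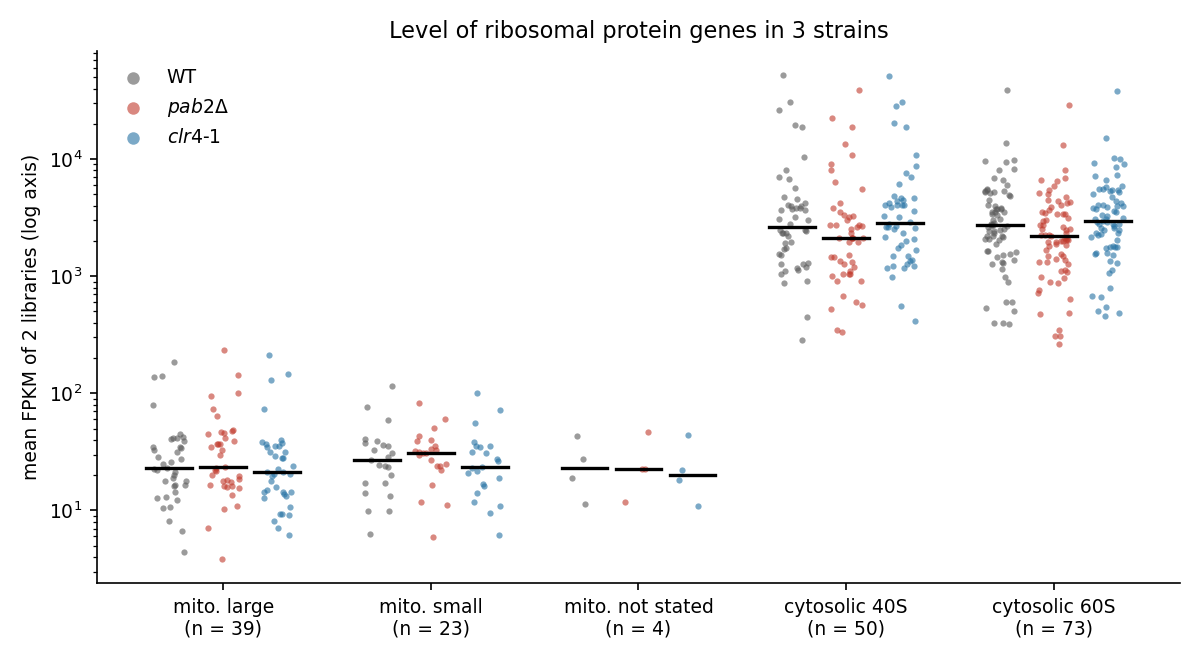
Each point is the mean FPKM of the 2 libraries of a strain for 1 gene, on a log axis, grouped by mitochondrial subunit class and by cytosolic subunit, and black bars are medians. In WT the mitochondrial genes lie between 4.43 and 185 FPKM and the cytosolic genes between 286 and 52270 FPKM.

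A few mitochondrial genes stood above the rest. The highest, *mrpl28* (*SJAG_04493*, described as subunit L28), reached 184 and 186 FPKM. Other abundant genes were *mrp11* (subunit L11, the family that forms the base of the ribosomal stalk) at 137 and 141 FPKM, *mrps17* (subunit S17) at 128 and 103 FPKM, and *mrpl7* (subunit L7) at 76.5 and 82.9 FPKM. The lowest were *mrps12a* (subunit S12) at 9.78 and 9.92 FPKM, *mrpl6* (subunit L16) at 7.45 and 8.91 FPKM, *mrpl17* (subunit L17) at 6.45 and 7.03 FPKM, *mrps9* (subunit S9) at 6.16 and 6.39 FPKM and *mrpl20* (subunit L20) at 4.71 and 4.16 FPKM. The step from *mrpl28* to *mrp11* was wider than the spread of replicates. Between neighbours in the order of all 66, the WT libraries did not overlap at only 16 of 65 steps, so most of the order is not resolved.

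Replicates differed little. The median difference between the 2 libraries of a strain for the 66 genes was 0.083 (WT), 0.092 (*pab2*Δ) and 0.096 (*clr4-1*) on the log2 scale, against 0.015, 0.037 and 0.017 for the more abundant cytosolic ones. Over all genes tested it was 0.051, 0.052 and 0.056, so the 66 genes varied more than the typical gene. A wider spread makes calls harder to reach, which limits how their shares called compare with those of all genes. Only *mrpl27* (subunit L27) in *pab2*Δ, at 20.4 and 11.5 FPKM, and *mrpl39* (subunit L39) in *clr4-1*, at 28.1 and 12.9 FPKM, differed by over 1.5-fold between replicates after 1 FPKM was added to both values.

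The balance between the mitochondrial and the cytosolic sets shifted in opposite directions in the mutants. The cytosolic genes made up 53.2% and 53.7% of the summed FPKM in WT. This share was 47.8% and 47.1% in *pab2*Δ, whereas *clr4-1* had 55.2% and 55.8%. The mitochondrial share was 0.208% and 0.210% in WT, higher in *pab2*Δ (0.263% and 0.262%) and lower in *clr4-1* (0.194% and 0.196%). Expressed over the cytosolic sum, the mitochondrial sum was 0.392% and 0.391% in WT, against 0.550% and 0.558% in *pab2*Δ and 0.351% in either *clr4-1* library. No library of one strain overlapped with those of another on any of these measures.

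The shift was narrower when the cytosolic transcripts were left out of the total. Among the remaining transcripts, the mitochondrial genes held 0.445% and 0.453% in WT, with 0.504% and 0.496% for *pab2*Δ and 0.433% and 0.444% for *clr4-1*. Large-subunit genes held 0.274% and 0.282% in WT and 0.327% and 0.322% in *pab2*Δ. Their share in *clr4-1* was 0.273% and 0.277%, overlapping with WT. Small-subunit genes held 0.151% and 0.150% in WT, 0.155% and 0.153% for *pab2*Δ and 0.141% and 0.146% for *clr4-1*, without overlap. With 2 libraries against 2, an exact permutation test of such a share cannot go below a two-sided p of 0.333, so none is given.

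By the deposited FPKM, more mitochondrial ribosomal protein genes were called higher than lower in *pab2*Δ, while nearly all cytosolic genes fell. In the limma test with Benjamini-Hochberg adjustment at 0.05 over 4899 genes, 30 of the 66 genes were higher in *pab2*Δ than in WT, 7 were lower and 29 were not called. The background was high: 53.8% of all genes tested were called higher and 19.9% lower, so the 45.5% and 10.6% among the 66 are no excess. Their median log2 fold change was 0.14, against 0.19 over all genes tested. Of the 123 cytosolic genes, 108 were lower and 7 higher, with a median of -0.36. In RNA from whole cultures, fewer cells with a transcript and less of it per cell cannot be told apart.

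Both subunits held genes that rose and genes that fell. Of 39 large-subunit genes, 17 rose (43.6%) and 2 fell (5.13%), with a median log2 fold change of 0.16. Of 23 small-subunit genes, 12 rose (52.2%) and 4 fell (17.4%), with a median of 0.14. Neither exceeded the 53.8% and 19.9% over all genes tested. Among the 4 genes of unstated subunit, *mrp17* rose and *mrp21* fell. The libraries of *pab2*Δ and WT did not overlap for 36 genes that were higher and 13 that were lower, where 61.4% and 25.5% of all genes tested behaved that way.

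How many of the 66 genes counted as higher depended on the scaling of the libraries. FPKM is relative to all transcripts in a library, and TMM scaling, which sets most genes to no change on average, moved the median of all genes in this comparison from 0.19 to -0.01. On that scale 11 of the 66 genes were higher and 18 lower, against 32.9% and 34.6% of all genes, and their median was -0.06. Large-subunit genes had 5 higher (12.8%) and 10 lower (25.6%), and small-subunit genes 6 (26.1%) and 7 (30.4%), each with a median of -0.05. Of the 30 genes called higher, 11 kept the call (*mrpl39*, *mrpl35*, *mrpl17*, *mrpl37*, *mrpl12*, *cox11*, *mrps28*, *mrps8*, *mrps18*, *bot1* and *rsm7*) and 5 had the opposite sign. The 7 genes called lower all kept the call. Cytosolic genes were lower on both scales, 118 of 123 after TMM scaling, with a median of -0.57 and none higher.

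**Figure D2:**
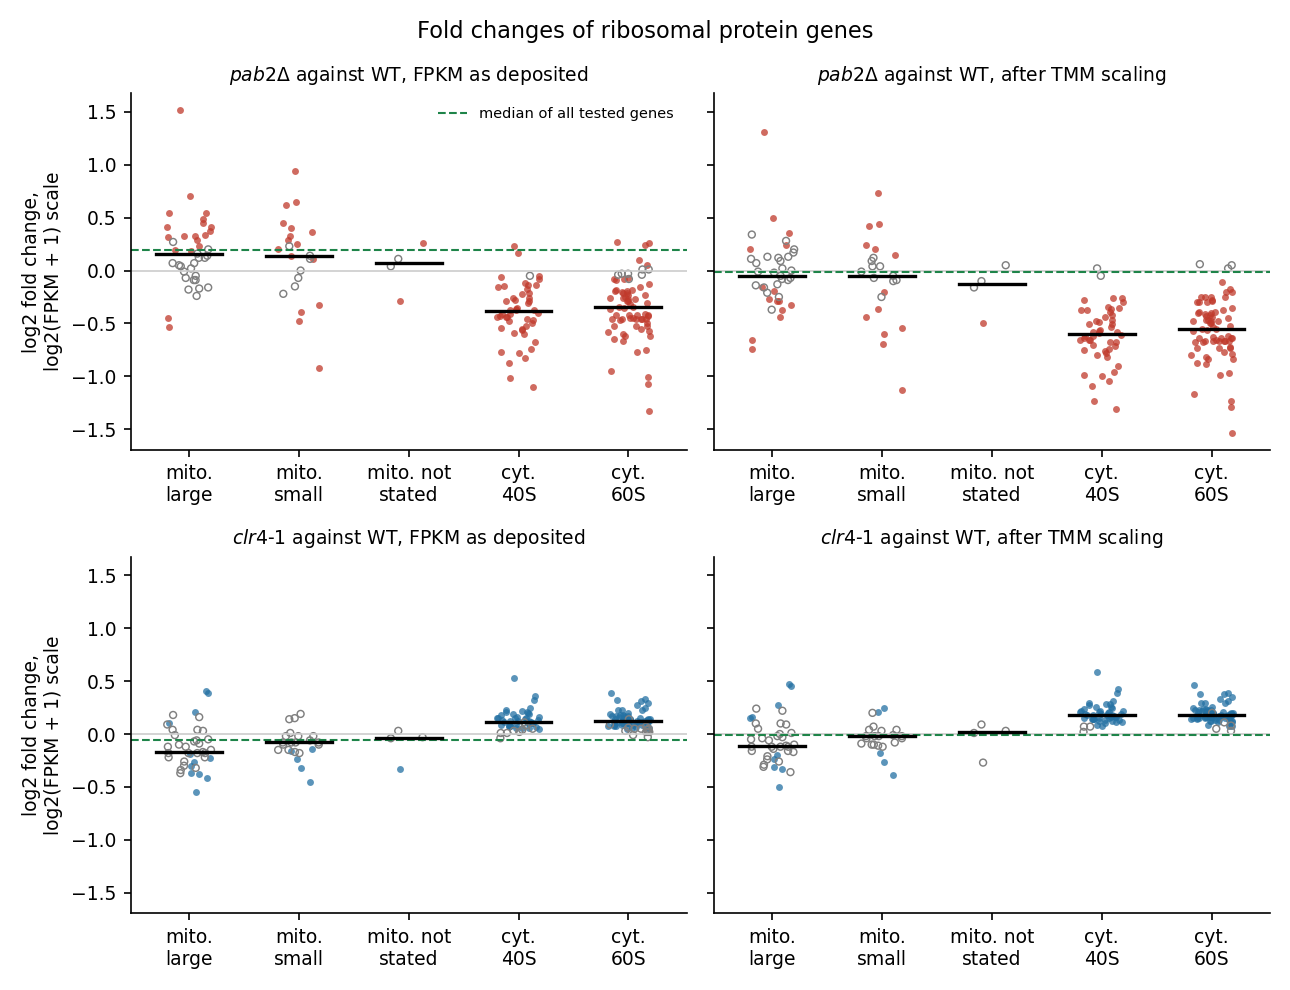
Each point is the limma log2 fold change of 1 gene against WT, on the log2(FPKM + 1) scale, filled where called at an adjusted p under 0.05, with black bars at list medians and a dashed line at the median of all genes tested. In *pab2*Δ the mitochondrial classes lie at or near the dashed line (medians of 0.16 and 0.14 for large and small subunit as deposited) and the cytosolic genes below it (-0.36 over both subunits), with the reverse order in *clr4-1*.

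Only *mrpl39* (*SJAG_02836*), a large-subunit gene, passed the 2-fold rule, by which all 4 ratios of a *pab2*Δ library to a WT library exceed 2. It was at 25.6 and 24.3 FPKM in WT, 81.5 and 66.2 FPKM in *pab2*Δ and 28.1 and 12.9 FPKM in *clr4-1*. Both *pab2*Δ libraries were above all others, by 2.58 to 3.35 times against WT. The log2 fold change was 1.52 ± 0.33 (SE, adjusted p = 0.00739). Without the first-listed *pab2*Δ library it was 1.37 with an adjusted p of 0.0508. By the same rule 7.6% of all genes exceeded 2 and 2.02% fell below 0.5, and no mitochondrial ribosomal protein gene fell below 0.5.

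The genes next to *mrpl39* in the gene order of the SJ5 reference moved far less. On one side, *mak5*, predicted to encode an RNA helicase, was at 44.6 and 43.5 FPKM in WT and 38.9 and 40.1 FPKM in *pab2*Δ, a log2 fold change of -0.15 (adjusted p = 0.00786). On the other, *SJAG_02837*, without a description, was at 13.1 and 14.6 FPKM in WT and 16.8 and 16.6 FPKM in *pab2*Δ, a log2 fold change of 0.26 (adjusted p = 0.00939). In that reference *mrpl39* does not overlap either of them.

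Other large-subunit genes rose by less. The gene *mrpl35* (subunit L35) stood at 18.4 and 17.7 FPKM in *pab2*Δ against 10.8 and 10.7 FPKM in WT, a log2 fold change of 0.70 ± 0.047 (SE, adjusted p = 6.1e-05), and its replicates were nearly equal. The gene *mrpl17* went from 6.45 and 7.03 to 10.2 and 10.3 FPKM (0.54 ± 0.076, adjusted p = 0.00113). The *pab2*Δ libraries were above both WT libraries in each case, and the calls of *mrpl35* and *mrpl17* held under all 11 alternatives tried. The calls of *mrpl31* (subunit L31), at 34.6 and 31.2 FPKM in WT and 48.3 and 48.4 FPKM in *pab2*Δ, and of *mrx14* (subunit L34), at 47.0 and 42.7 FPKM in WT and 55.8 and 71.8 FPKM in *pab2*Δ, were lost after TMM scaling. They were also lost without the second WT replicate and, for *mrpl31*, without either *pab2*Δ library.

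The abundant *mrpl28* and *mrpl7* belong with these. At 242 and 224 FPKM in *pab2*Δ, *mrpl28* was 0.33 ± 0.057 higher on the log2 scale (SE, adjusted p = 0.00285), and *mrpl7* reached 94.1 and 105 FPKM. Neither overlapped with WT, and neither call was kept after TMM scaling, where the log2 fold change of *mrpl28* was 0.12 (adjusted p = 0.108). The call of *mrpl7* was also lost without the first WT replicate. The level of *mrp11*, at 140 and 149 FPKM in *pab2*Δ, was not called as deposited and was lower after TMM scaling (-0.16, adjusted p = 0.0113).

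The large-subunit gene *mrpl8* (subunit L8) fell. Its level was 22.5 and 22.5 FPKM in WT and 18.1 and 14.4 FPKM in *pab2*Δ, with a log2 fold change of -0.45 (adjusted p = 0.00784). The strains did not overlap, and the call held under all 11 alternatives.

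Among small-subunit genes, the fusion gene *cox11* (*SJAG_03322*) rose most, reaching 34.9 and 32.6 FPKM in *pab2*Δ against 16.5 and 17.7 FPKM in WT. Its log2 fold change was 0.94 ± 0.055 (SE, adjusted p = 3.8e-05), with ratios of 1.84 to 2.11. It therefore stood just outside the 2-fold rule, which needs all 4 ratios. The gene *mrps28* (subunit S28) went from 34.9 and 41.0 to 56.6 and 63.1 FPKM (log2 fold change 0.65, adjusted p = 0.00103), and *mrps8* (subunit S8, of a family that binds the central part of the small-subunit rRNA) from 13.2 and 15.1 to 21.6 and 23.1 FPKM (0.62, adjusted p = 0.0019). Neither gene overlapped between the strains, and the 3 calls held under all 11 alternatives.

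Small-subunit genes also included the largest fall of all 66. The level of *mrps16* (*SJAG_02324*, subunit S16) was 78.3 and 75.8 FPKM in WT, 36.3 and 44.3 FPKM in *pab2*Δ and 69.0 and 74.9 FPKM in *clr4-1*. The *pab2*Δ libraries were the lowest of the 6, with a log2 fold change of -0.92 ± 0.096 (SE, adjusted p = 0.000335). The gene *mrps17* fell from 128 and 103 FPKM to 83.6 and 80.4 FPKM, *rsm18* (subunit S18) from 33.2 and 32.9 to 24.9 and 25.0 FPKM, and *rsm19* (subunit S19) from 41.7 and 39.3 to 31.7 and 32.4 FPKM. None overlapped with WT. Without the first WT replicate, *rsm19* was no longer called. Of the genes of unstated subunit, *mrp21* went from 28.4 and 27.1 to 24.8 and 20.4 FPKM (-0.29, adjusted p = 0.038), a call lost without either WT replicate or without the second-listed *pab2*Δ library.

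**Figure D3:**
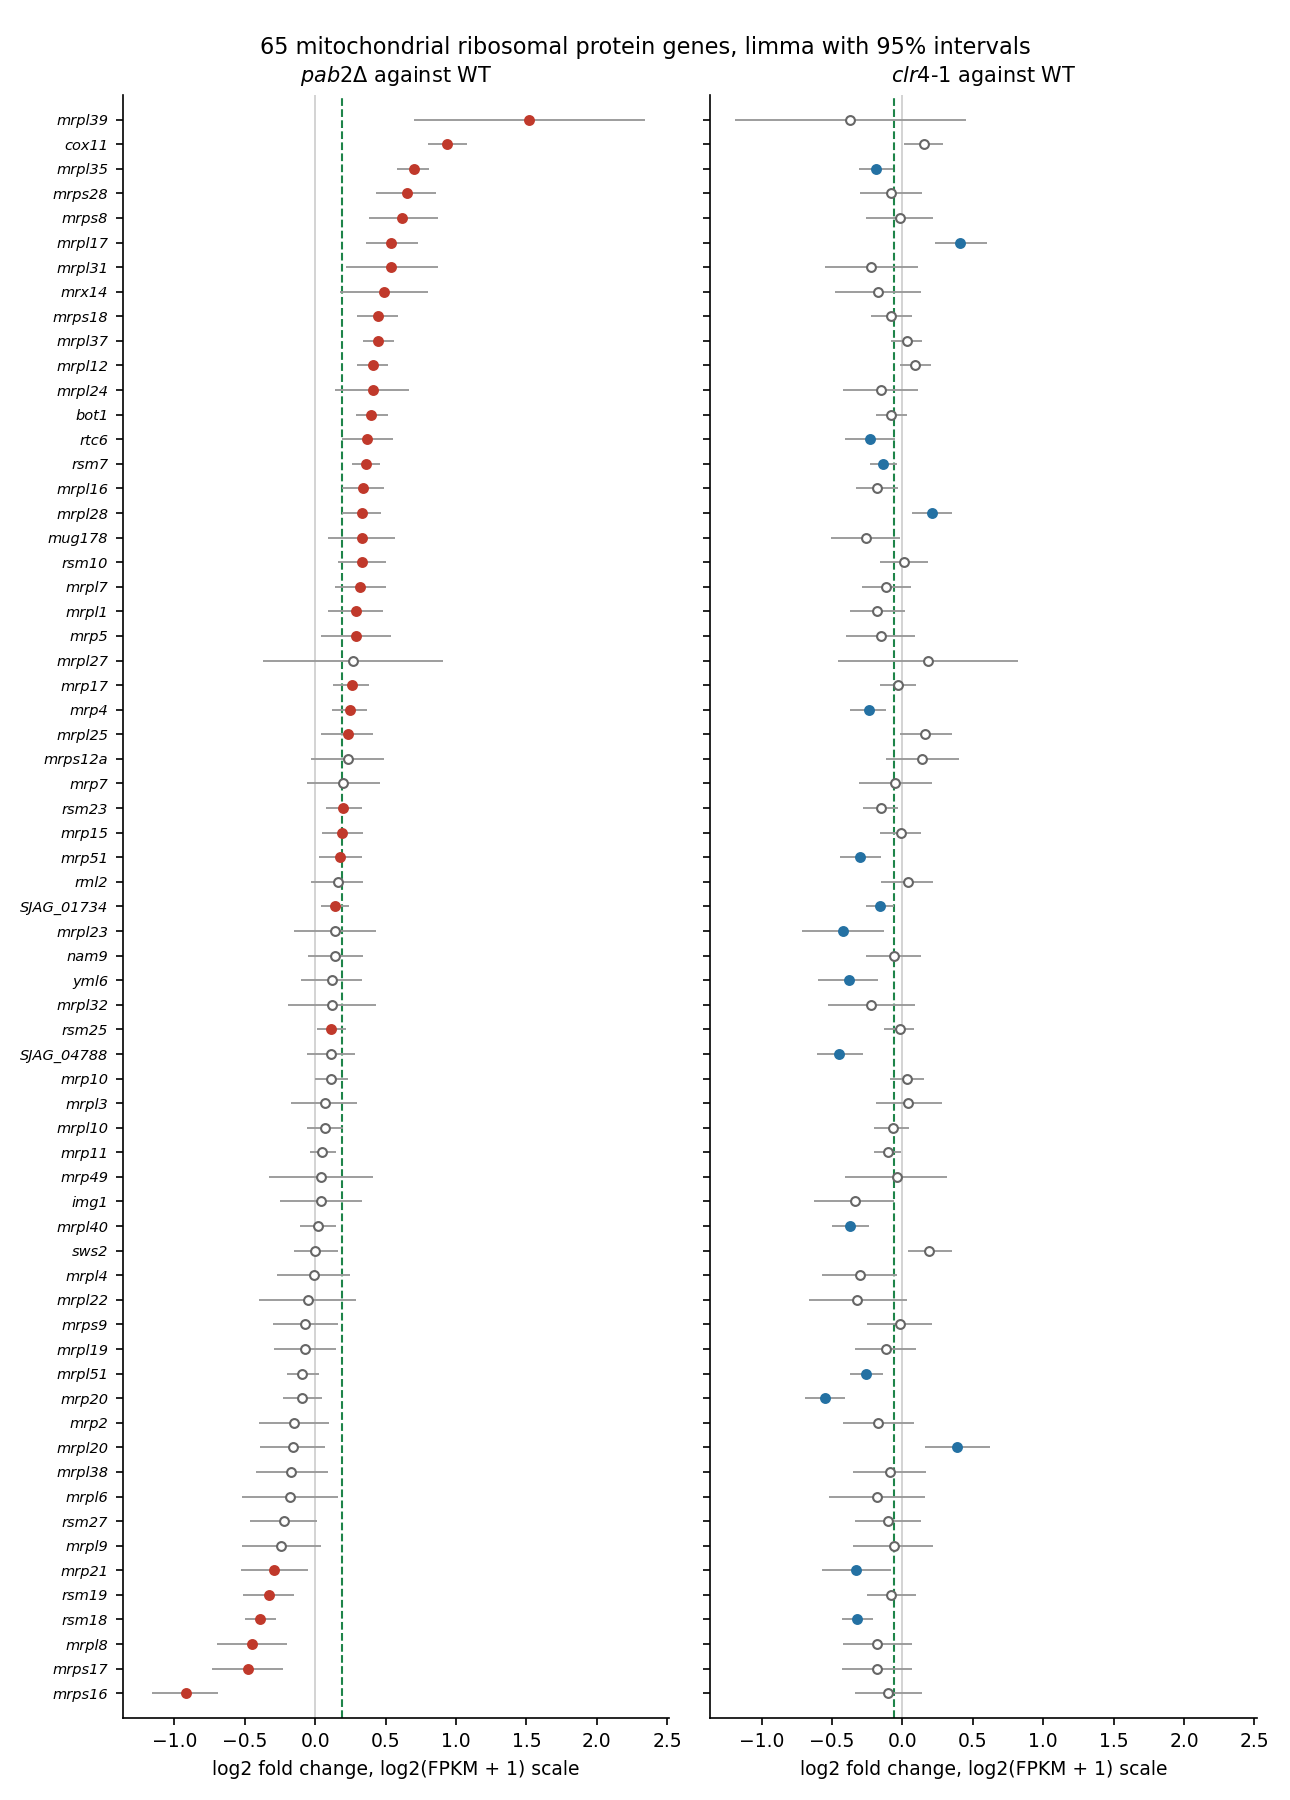
Mitochondrial ribosomal protein genes (65 of the 66) ordered by their log2 fold change in *pab2*Δ (left), with the same order kept for *clr4-1* (right), with limma log2 fold changes on the log2(FPKM + 1) scale as points, filled where called, 95% intervals as lines and the median of all genes tested as a dashed line. In *pab2*Δ the range runs from -0.92 for *mrps16* to 1.52 for *mrpl39*, and in *clr4-1* from -0.55 for *mrp20* to 0.41 for *mrpl17*.

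In *clr4-1* the changes of the 66 genes were smaller, and more of those called were lower than higher. By the same limma test, 4 genes were higher than in WT and 14 lower, and 48 were not called, where 15.1% of all genes tested were higher and 27.4% lower. The median log2 fold change was -0.11, against -0.06 over all genes. The cytosolic genes moved the other way, with 100 of 123 higher, none lower and a median of 0.11. None of the 66 passed the 2-fold rule in either direction, where 0.796% of all genes exceeded 2 and 1.18% fell below 0.5.

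The counts in *clr4-1* were small and moved with the scaling and with single libraries. After TMM scaling 7 of the 66 genes were higher and 8 lower, against 20.7% and 18.2% of all genes, with a median of -0.05, while 115 of 123 cytosolic genes were higher. They also moved when a single library was left out. Such a fit keeps 1 library in a strain, and the share of all genes it called is not given here. Its counts are therefore not read as particular to the 66. The libraries of *clr4-1* and WT did not overlap for 8 genes that were higher and 30 that were lower, where 26.7% and 46.8% of all genes behaved that way.

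The genes called higher in *clr4-1* included *mrpl17*, *mrpl20* and *mrpl28* of the large subunit. The level of *mrpl17* was 8.78 and 9.84 FPKM in *clr4-1*, above both WT libraries (log2 fold change 0.41 ± 0.076, SE, adjusted p = 0.00897), and its call held under all 12 alternatives. The low-abundance *mrpl20* was at 5.86 and 6.41 FPKM (0.39, adjusted p = 0.0202) and *mrpl28* at 224 and 204 FPKM (0.21, adjusted p = 0.0316). These calls rested on single libraries: that of *mrpl20* was lost without the second replicate of either strain, and that of *mrpl28* without either WT replicate or the first *clr4-1* replicate. None of the 23 small-subunit genes was called higher, where 15.1% of all genes tested were. After TMM scaling 2 of the 23 (8.7%) were called higher, against 20.7% of all genes.

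The largest fall in *clr4-1* was that of *mrp20*, which is described as subunit L23, a family found at the exit of the peptide tunnel. It had 13.0 and 13.6 FPKM in *clr4-1* against 20.1 and 19.9 FPKM in WT, a log2 fold change of -0.55 ± 0.056 (SE, adjusted p = 0.00126). In *pab2*Δ, at 19.6 and 17.9 FPKM, it was not called as deposited, but was lower after TMM scaling (-0.29, adjusted p = 0.00538). The small-subunit gene *SJAG_04788*, described as S26, went from 30.2 and 27.4 to 21.2 and 20.5 FPKM (-0.45, adjusted p = 0.00474), *mrpl40* (subunit L40) from 39.5 and 42.3 to 32.3 and 30.4 FPKM (-0.37, adjusted p = 0.00388) and *rsm18* to 25.3 and 27.2 FPKM (-0.32, adjusted p = 0.00359). No *clr4-1* library of these 4 genes overlapped with WT, and their calls held under all 12 alternatives.

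Other falls were less firm. The level of *mrpl23* (described as subunit L13) was 41.1 and 43.2 FPKM in WT and 27.4 and 35.6 FPKM in *clr4-1* (-0.42, adjusted p = 0.0339), and *yml6* went from 11.3 and 13.3 to 9.51 and 8.89 FPKM (-0.38, adjusted p = 0.0184). The gene *mrp21* went to 20.8 and 23.0 FPKM (-0.33, adjusted p = 0.0428) and *mrp51* from 25.7 and 26.5 to 19.9 and 22.3 FPKM (-0.30, adjusted p = 0.0128). The strains did not overlap for any of these 4 genes, but the calls of *mrpl23* and *mrp51* were lost without either WT replicate, that of *yml6* without the second WT or either *clr4-1* replicate, and that of *mrp21* without any 1 of the 4 libraries. After TMM scaling *mrpl23* and *mrp21* were not called (adjusted p of 0.0626 and 0.0836).

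**Figure D4:**
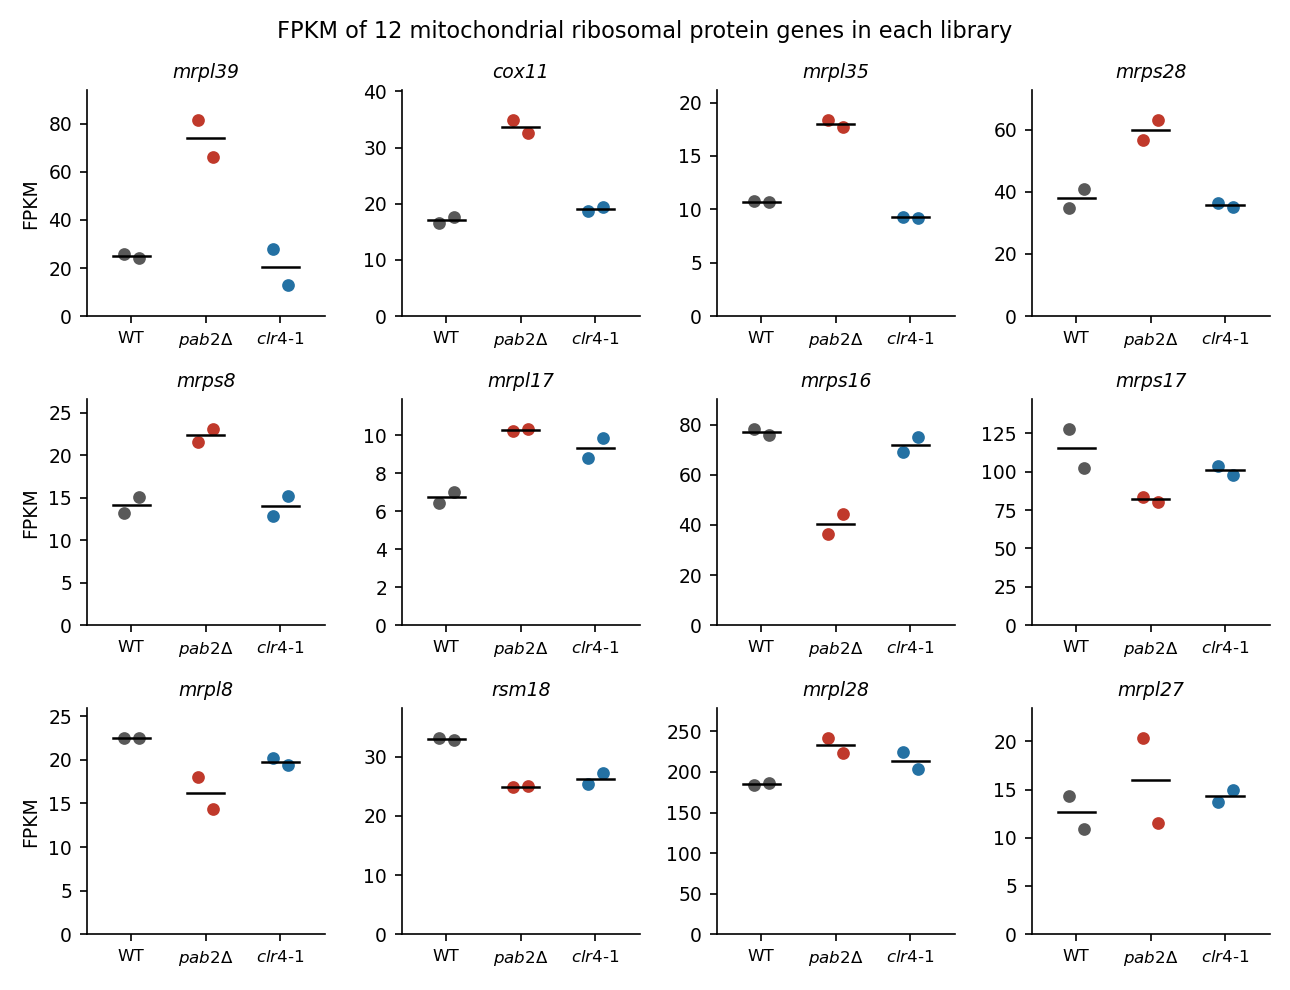
FPKM of 12 mitochondrial ribosomal protein genes in each library (points), with the mean of the 2 libraries of a strain (bars) and each axis starting at 0. The *pab2*Δ libraries of *mrpl39* (81.5 and 66.2 FPKM) and *cox11* (34.9 and 32.6 FPKM) lie above and those of *mrps16* (36.3 and 44.3 FPKM) below all others, while the 2 *pab2*Δ libraries of *mrpl27* lie apart.

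Because the comparisons of *pab2*Δ and *clr4-1* with WT share their WT libraries, the mutants were also compared with each other. By limma, *pab2*Δ exceeded *clr4-1* for 39 of the 66 genes and was below it for 7, where 61.1% of all genes were higher and 17.4% lower, with a median log2 difference of 0.28 against 0.27 over all genes. After TMM scaling 20 were higher and 16 lower, against 34.8% and 34.2% of all genes, with a median of 0.01. The libraries of the mutants did not overlap for 45 genes that were higher in *pab2*Δ and 10 that were lower, where 68.0% and 21.2% of all genes behaved that way. Only *mrpl39* exceeded 2 in all 4 ratios between the mutants and none fell below 0.5, where 8.4% and 2.2% of all genes did so. The lower genes included *mrps16*, *mrps17*, *rsm19*, *mrpl8*, *mrpl20* and *sws2*, which kept the call after TMM scaling. The count of lower genes was smaller when a library of either mutant was left out, and the share of all genes in such fits is not given here. For the cytosolic genes 117 of 123 were lower in *pab2*Δ than in *clr4-1*.

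Which genes were called in both mutants depended on the scaling. By the deposited FPKM 48 of the 66 were not called in *clr4-1*, so few could be called in both. The share of all genes called in both mutants is not given here, so these counts are not read as particular to the 66. By the deposited FPKM, *mrpl17* and *mrpl28* were called higher, and *rsm18* and *mrp21* lower, in both, and 22 genes were called in neither. After TMM scaling *mrpl17*, *cox11* and *mrpl12* were higher and *rsm18*, *mrp20*, *mrpl40* and *mrpl51* lower in both. Opposite calls were found for *mrpl35*, *rsm7*, *rtc6*, *mrp4*, *mrp51* and *SJAG_01734*, which were higher in *pab2*Δ and lower in *clr4-1* by the deposited FPKM. After TMM scaling none of these 6 kept both calls: *mrpl35* and *rsm7* remained higher in *pab2*Δ, *mrp4* and *mrp51* remained lower in *clr4-1*, and *rtc6* and *SJAG_01734* were called in neither. On that scale *mrpl20* and *sws2* were lower in *pab2*Δ and higher in *clr4-1*. In *clr4-1* the calls of *mrpl35*, *rsm7*, *rtc6* and *SJAG_01734* were lost without any 1 of the 4 libraries, and those of *mrp4* and *mrp51* without either WT replicate. In *pab2*Δ those of *mrp51*, without any 1 library, and of *SJAG_01734*, without either WT replicate or the first-listed *pab2*Δ library, were lost too.

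The direct comparison is not a separate test of these 6 genes. In the shared model the direct difference is the change in *pab2*Δ less the change in *clr4-1*. The genes were chosen as higher in *pab2*Δ and lower in *clr4-1*, so a positive difference by the deposited FPKM was fixed by that choice. The values are given for their size only. For *mrpl35*, at 9.32 and 9.23 FPKM in *clr4-1*, the direct difference was 0.89 (adjusted p = 2.2e-05) and 0.63 after TMM scaling (adjusted p = 8.9e-05). For *rsm7* (subunit S7), with 31.0 and 30.6 FPKM in *pab2*Δ against 21.6 and 21.5 FPKM in *clr4-1* (WT 24.3 and 23.3 FPKM), the direct difference was 0.50 (adjusted p = 9.5e-05). For *mrp4* (subunit S2) it was 0.49, for *rtc6* (subunit L36) 0.60 and for *mrp51* 0.48, and these remained called after TMM scaling. For *SJAG_01734* (subunit S26), with 44.1 and 41.6 FPKM in *pab2*Δ against 34.6 and 34.8 FPKM in *clr4-1* (WT 38.3 and 39.3 FPKM), the direct difference was 0.03 after TMM scaling (adjusted p = 0.565). After TMM scaling, *mrp51* and *SJAG_01734* were below WT in *pab2*Δ, at -0.02 and -0.07, and not called.

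Several proteins carry the same number in their descriptions, and genes sharing a number could differ in level and in response. There were 8 such numbers, covering 17 genes. A shared number is a matter of naming and does not show that the genes are copies. The pair described as L28 differed most, *mrpl28* at a mean of 185 FPKM in WT and *mrpl24* at 17.7 FPKM, 10.5 times apart. The pair described as S18 moved in opposite directions in *pab2*Δ: *rsm18* fell (-0.39, adjusted p = 0.00048), while *mrps18* rose from 17.5 and 17.0 to 25.0 and 22.8 FPKM (0.45, adjusted p = 0.000892), and both calls held after TMM scaling. Of the pair described as S26, *SJAG_04788* and *SJAG_01734* both fell in *clr4-1*, and *SJAG_04788* was not called in *pab2*Δ.

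Direct neighbours among the 66 genes were rare, and looser clusters were not examined. By locus order in the SJ5 reference, to which all 66 matched by locus tag, only *mrpl28* and *mrps12a* are neighbours, at means of 185 and 9.85 FPKM in WT. In the reference 41 of the 66 genes overlap an adjacent gene, and whether reads were counted by strand is not given in the sources used here, so values of these 41 may include reads of the neighbour. For *mrps16* the overlapping gene is *osh42*, at a mean of 65.8 FPKM in WT and 45.0 FPKM in *pab2*Δ. It was at 49.2 FPKM in *clr4-1*, where *mrps16* was not called. For *cox11* they are *SJAG_03321* (117 FPKM in WT and 139 FPKM in *pab2*Δ) and *gem2* (31.3 and 45.3 FPKM). For *mrpl8* it is *aga1* (86.4 and 54.0 FPKM), at 51.1 FPKM in *clr4-1*, where *mrpl8* was not called. For *SJAG_04788* it is *SJAG_04787*, at 36.7 FPKM in WT and 22.2 FPKM in *clr4-1*. It was at 25.3 FPKM in *pab2*Δ, where *SJAG_04788* was not called. Those of *rsm18*, *SJAG_04282* (14.4 and 28.3 FPKM) and *wee1* (1.91 and 2.06 FPKM), did not fall in *pab2*Δ. That of *SJAG_01734*, *btf3*, was at 1664 FPKM in WT, 768.5 FPKM in *pab2*Δ and 1736 FPKM in *clr4-1*, opposite in direction to *SJAG_01734*. The part of neighbouring transcripts in these values was not tested.

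Other genes of mitochondrial gene expression and respiration were set beside the 66. In *pab2*Δ, where 53.8% of all genes were higher and 19.9% lower (32.9% and 34.6% after TMM scaling), 30 of 37 genes for the respiratory chain and ATP synthase were higher (81.1%) and none lower, with a median log2 fold change of 0.49. After TMM scaling 18 were higher (48.6%) and 3 lower. Of 36 other genes found by words of mitochondrial translation, 25 were higher (69.4%) and 3 lower, with a median of 0.32, and after TMM scaling 13 (36.1%) and 7. That word rule also takes in *dml1*, *msp1* and *fzo1*, which are not translation genes. Of 25 import genes 8 were higher (32.0%) and 5 lower, but 4 were higher and 10 lower after TMM scaling. In *clr4-1*, where 15.1% of all genes were higher and 27.4% lower, 3 respiratory genes were higher and 10 lower (27.0%), 3 translation genes higher and 10 lower (27.8%), and 3 import genes higher and 2 lower. After TMM scaling (20.7% and 18.2% of all genes) these counts were 4 and 7 for the respiratory, 6 and 5 for the translation and 9 and 2 for the import genes.

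Cytosolic genes fell across the range of abundance in *pab2*Δ. The most abundant, *rps29*, had 39160 and 38390 FPKM in *pab2*Δ against 53140 and 51390 FPKM in WT, a log2 fold change of -0.43 (adjusted p = 1.3e-05). The largest falls were those of *rpp203*, at 5122 and 5095 FPKM in WT and 2023 and 2049 FPKM in *pab2*Δ, and *rps22b*, at 1131 and 1123 FPKM and 530.6 and 522.7 FPKM. The genes *rpl10* and *rlp24*, which passed the test as higher in *pab2*Δ (0.26 and 0.27), were not called after TMM scaling (0.05 and 0.06). The largest rises in *clr4-1* were those of *rpl1b* (0.39, adjusted p = 0.000144) and of *rps14a*, from 287 and 285 FPKM to 430.0 and 397 FPKM (0.53, adjusted p = 0.000544). Many cytosolic ribosomal proteins are encoded by near-identical gene copies, and how reads fitting several copies were assigned is not given, so single cytosolic values are uncertain.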

How the data were processed

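RNA was extracted from cells grown in 2 biological replicates of each strain and sequenced as strand-specific libraries. The submitters' processing notes name FastQC 0.11.6, STAR 2.5.3a and StringTie 1.3.1c, while the genome build, the annotation and the treatment of reads fitting several genes are not given in the sources used here. The authors deposited 1 table of 5272 genes with a value per library, taken here as FPKM because the values are fractional and sum to totals that differ between libraries and exceed the fixed total of TPM in some. The 4 deposited columns of ratios, each a mutant value over WT, were not used. The *pab2*Δ columns carry no replicate number and are called first-listed and second-listed. FPKM holds no read number, so depth is unknown, no counting error is given, and p-values rest on the spread between 2 libraries per strain, which share 1 estimate.

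The 4899 genes whose mean over the 6 libraries reached 1 FPKM were tested with limma 3.58.1 in R 4.3.3 on log2(FPKM + 1), in 1 model of the 3 strains with an intensity trend, two-sided and with Benjamini-Hochberg adjustment over all genes tested. Fold changes on that scale understate changes of low genes. The 2-fold rule asks that all 4 ratios of mutant to WT libraries exceed 2 or fall below 0.5, with no pseudocount. Subunit classes and comparison lists came from words of the deposited descriptions, and the cytosolic list leaves out genes described as factors for biogenesis or modification. It keeps *rlp24*, described as a ribosomal protein, whose *S. cerevisiae* counterpart acts in biogenesis of the large subunit. The genes and lists were chosen with earlier results of these data known. Named genes are those past the 2-fold rule and, in each mutant, the 8 largest called rises and falls, with the 5 highest and 5 lowest in WT, fusion genes, opposite calls and, of the cytosolic genes, the 3 highest and the 2 largest rises and falls per mutant. Other genes, such as *mrpl27*, *mrpl24*, *mrps18* and overlapping neighbours, were named after their values were seen. The values of 1 gene are not reported here, though it counts among the 66. Gene order was read from the RefSeq gene table (SJ5), where locus tags were found for 5213 genes.

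As alternatives, the pseudocount was set to 0.1 or 5 and the filter was dropped or raised to 5 FPKM. Others were unweighted TMM factors computed on FPKM (trimming 30% of log ratios and 5% of levels), median centring, fits of 4 libraries, leaving out each library, a replicate block, thresholds of 1.5-fold and 3-fold, 1 FPKM added to each ratio and, chosen after seeing the data, leaving out the fusion genes. The test was tested on simulated data of *pab2*Δ against WT with 4867 genes, where it called 97 of 100 genes changed 1.5-fold, 100 of 100 changed 3-fold and 13 of 4667 unchanged genes. The simulated noise followed the replicate spread of these libraries, changes went in either direction and no shift in library scaling was built in. It therefore gives no rate of false calls for the real comparison. Other steps used Python 3.11.15, numpy 2.4.6, pandas 2.3.3 and matplotlib 3.10.9.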

Additional observations from a re-analysis of the deposited data

How the results depend on the processing

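In both comparisons with *pab2*Δ, scaling moved the counts more than leaving out any library, and in *clr4-1* against WT both moved them. With TMM scaling and with median centring, respectively, 11 and 10 genes were higher and 18 and 24 lower in *pab2*Δ than in WT (medians -0.06 and -0.13), 7 and 7 higher and 8 and 7 lower in *clr4-1* than in WT (medians -0.05 and -0.03), and 20 and 12 higher and 16 and 24 lower in *pab2*Δ than in *clr4-1* (medians 0.01 and -0.07). Under median centring 27.4% of all genes tested were higher and 40.2% lower in *pab2*Δ than in WT. These shares were 22.4% and 15.5% for *clr4-1* against WT, and 27.5% and 40.5% for *pab2*Δ against *clr4-1*. In *pab2*Δ, *SJAG_01734* (-0.07 and -0.13) and *mrp51* (-0.02 and -0.08) changed sign under both scalings and *mrp4* (-0.02) under median centring. With a pseudocount of 5 the median between the mutants was 0.23. At 3-fold, 0 of the 66 genes in *pab2*Δ had all ratios above the threshold, where 215 of 4897 genes in all did. At 1.5-fold, 3 did and 1 was below, where 784 and 247 of the 4897 genes did so. The cause of these shifts was not tested. Leaving out single libraries gave medians of 0.14 to 0.17 in *pab2*Δ, -0.12 to -0.10 in *clr4-1* and 0.23 to 0.32 between the mutants. Counts called in these fits, which keep 1 library in a strain, are not given. Other pseudocounts, filters, fits of 4 libraries and leaving out the fusion genes kept all counts within 1.5 times. Of the named calls, 10 of 22 in *pab2*Δ and 5 of 17 in *clr4-1* held under every alternative.

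Same-numbered WT and *clr4-1* libraries did not deviate together (r = -0.0945 across 4899 genes, which are not independent), and with the replicate block 1 gene was higher and 12 lower in *clr4-1*, with a median of -0.11. No paired analysis was possible for *pab2*Δ because its columns carry no replicate number. No gene of the set was an accessory factor, so leaving such genes out was not run. The design has 2 libraries per strain and no read numbers, so changes under the spread of 2 libraries were not detectable and absence of a call does not show equal levels.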
